A study of Homo sapiens with 16 samples.

Results

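The 451Lu melanoma line was followed after its BRAF inhibitor was removed, and the comparison described here is the change between the 72 h and the 120 h time points. It rests on 4 of the 16 libraries of the series, 2 at 72 h and 2 at 120 h, picked by cell line and time in the labels. The cells were 451Lu BR, a human melanoma line with acquired drug resistance. They had been held on dabrafenib (1 µM), an inhibitor of the BRAF kinase, and at both times DMSO had replaced the drug, for 3 or 5 days. The treatment notes name dabrafenib alone for this line, whereas the source name states resistance to dabrafenib and trametinib, a MEK inhibitor, so which drugs shaped the resistant cells cannot be told apart from the labels. The remaining 451Lu libraries, 2 on drug and 2 taken 24 h after withdrawal, entered the same fit to estimate the spread. The 24 h libraries also give the change from 24 h to 72 h, which is set against the later change further below. The rest of the series covers a second resistant line, A375, and is not used here. The groups used here hold no library kept on drug for 72 h or 120 h, so time without drug and time in culture cannot be told apart.

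BRAF passes growth signals through MEK to the kinase ERK, which drives transcription of cyclin D1, of AP-1 factors and of its own inhibitors. Melanoma cells that have adapted to a BRAF inhibitor can depend on the drug: its removal lets ERK activity exceed what the cells tolerate, and they may then leave the cell cycle and change their differentiation state. Genes of S phase and mitosis, inflammatory cytokines, matrix genes and pigment genes are therefore the usual readouts in such cells.

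RNA from each library was counted per gene, and levels are given in CPM, the counts scaled to a common library size after TMM adjustment. Libraries held 9714190 and 10691515 counts at 72 h and 13755264 and 12084012 counts at 120 h. Melanocyte genes were detected at both times, with PMEL at 400.0 ± 79.3 CPM at 72 h and 398 ± 37.2 CPM at 120 h and MITF at 278 ± 4.86 CPM at 72 h and 279 ± 17.8 CPM at 120 h (SD, n = 2). Of 20 marker genes of other cell types, 14 were listed in the table and 8 had enough counts to be tested, and PTPRC of leukocytes, EPCAM of epithelia and ALB of liver had 0 counts in all 4 libraries. Together these markers summed to 116 and 109 CPM at 72 h and to 215 and 206 CPM at 120 h. PECAM1, an adhesion molecule best known from endothelium, made up most of that rise (25.0 and 19.9 CPM at 72 h and 111 and 111 CPM at 120 h), while VWF, another endothelial marker, stood at 0.859 and 0.663 CPM at 72 h and 0.321 and 0.365 CPM at 120 h. What these markers contribute to the other results was not tested. No label tells if replicate libraries were grown as cultures of their own, and the p-values below therefore rest on a spread that may be technical.

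Of 13851 genes tested, 4531 (32.7%) changed between 72 h and 120 h at an adjusted p under 0.05 (edgeR's quasi-likelihood test, Benjamini-Hochberg adjustment over all genes tested). Higher at 120 h were 2297 genes (16.6%) and lower were 2234 (16.1%), and the libraries of the 2 times did not overlap for 65.2% of all genes tested. Most of these changes were small: 726 of the 4531 reached 2-fold (356 higher, 370 lower) and 230 reached 4-fold (82 higher, 148 lower). Past 8-fold, 21 genes were higher and 64 were lower. Against a fold change of 1.5 in place of no change, 550 genes were called, 241 higher and 309 lower. Scaling by library totals alone, with no correction for composition, shifted the median of all genes to -0.11 on the log2 scale and gave 1500 higher and 3396 lower, so that 30.6% of its calls were higher, against 50.7% with TMM. All directions below are relative to the other genes and not amounts of RNA per cell. Leaving out the second 72 h library lowered the count to 2851 genes, and DESeq2 called 2975.

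**Figure D1:**
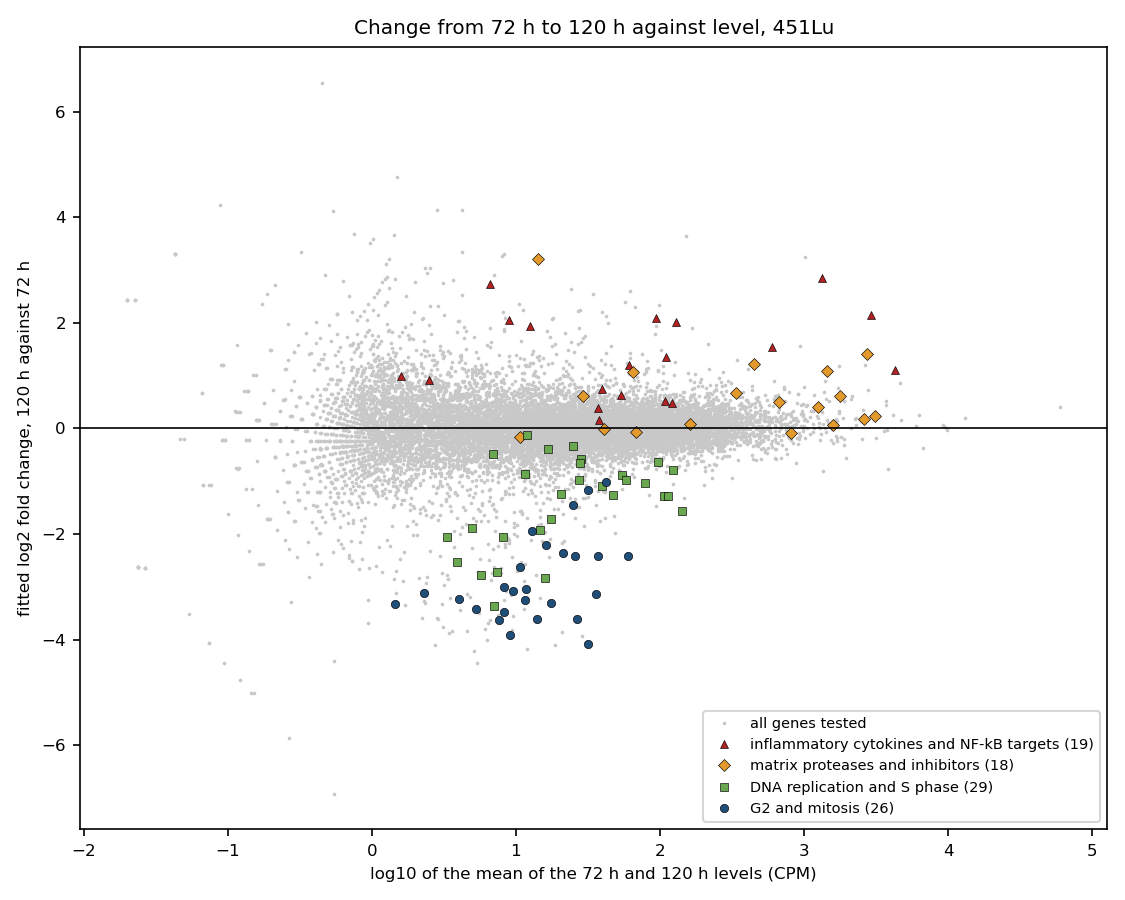
Each grey point is 1 of the 13851 genes tested, with the log10 of its mean level at 72 h and 120 h (CPM) on the x axis and its fitted log2 fold change on the y axis; colours mark the tested members of 4 gene lists. The 26 mitosis genes lie between -4.08 and -1.02, all below 0, and the 19 cytokine genes lie between 0.16 and 2.84, while fitted values of genes with hardly any counts, at the far left, depend on the prior count of the fit.

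The replicates of a time did not lie at the same distance from the other time. Of the 356 genes that were higher by at least 2-fold, the first 72 h library was nearer to the 120 h mean than the second in 258 (72.5%), and the first 120 h library was the higher of its pair in 269 (75.6%). Of the 370 genes lower by at least 2-fold, the first 72 h library was the nearer one in 305 (82.4%), but the first 120 h library was the higher in only 143 (38.6%). Replicate libraries differed by more than counting noise at both times, with a chi-square per degree of freedom of 3.96 at 72 h and 5.61 at 120 h.

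The 30 gene lists used below were read against the shares of all genes called, 16.6% higher and 16.1% lower. Lists of mitosis, DNA replication, cholesterol synthesis, ribosome biogenesis, ribosomal protein and nuclear respiratory chain genes held members called lower and none called higher. Lists of cytokines, matrix proteases, collagens, neural crest genes, MHC class I genes and mitochondrially encoded genes held members called higher and none called lower. For collagens this did not hold with any library left out, as given below. The share called in either direction was 33.3% for neural crest genes, 36.4% for collagens and 38.5% for mitochondrially encoded genes. These shares were near the 32.7% of all genes tested. The same members can stand in 2 lists, and the lists were chosen with earlier results of these data known, so their counts are descriptions.

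**Figure D2:**
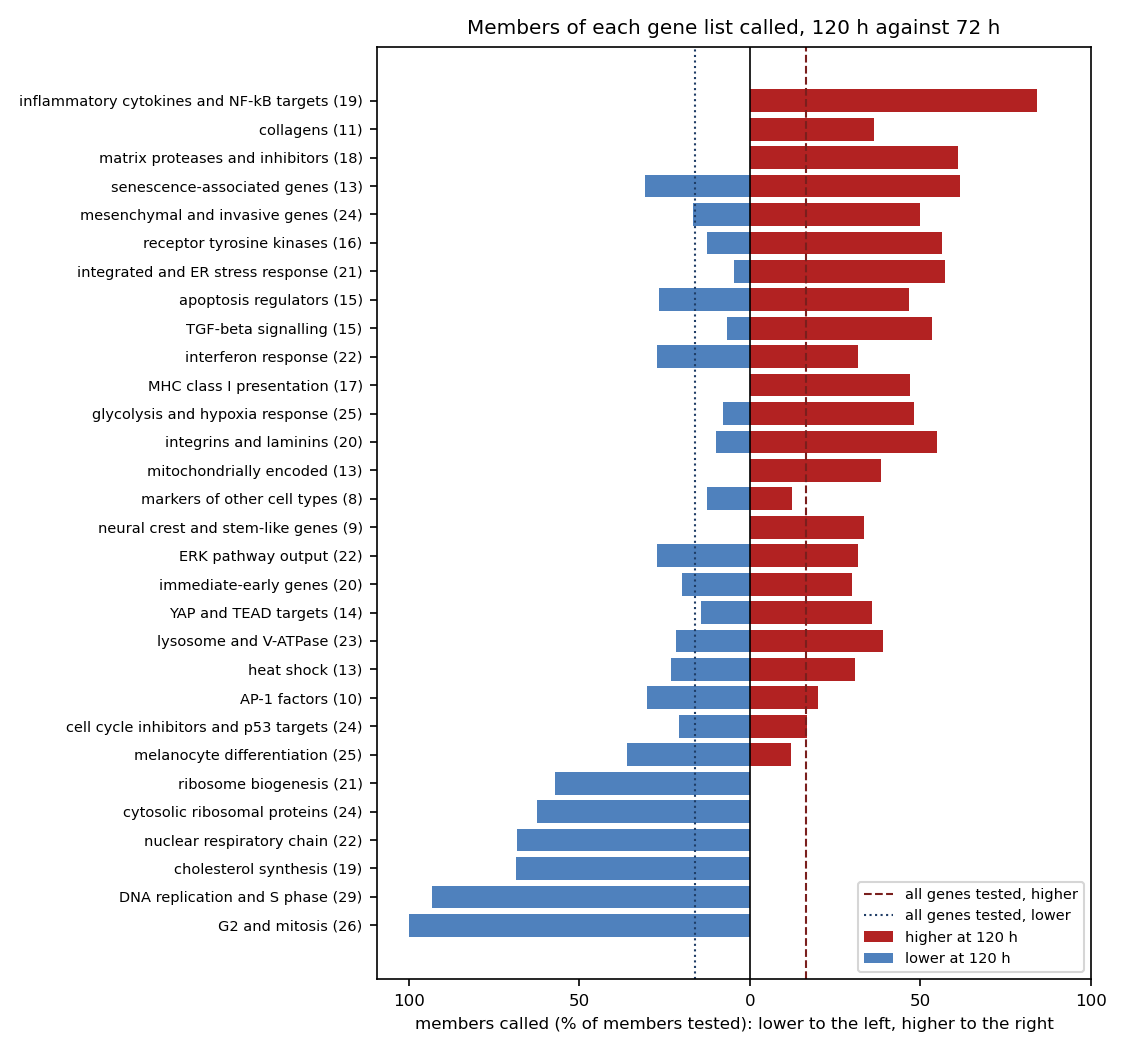
Bars give, for each of 30 gene lists (number of tested members in parentheses), the percent of tested members called lower (blue, to the left) and higher (red, to the right) at 120 h against 72 h, and the dashed and dotted lines mark the shares over all genes tested, 16.6% and 16.1%. The mitosis list reaches 100% lower, and the cytokine list 84.2% higher.

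Genes of cell division fell steeply. All 26 G2 and mitosis genes tested fell, with a median log2 fold change of -3.09 against -0.003 over all genes. The libraries of the 2 times did not overlap for 65.2% of all genes tested and for all 26 of these. Their summed level dropped from 721 and 915 CPM at 72 h to 146 and 167 CPM at 120 h. MKI67, the proliferation marker Ki-67, stood at 55.3 and 63.4 CPM at 72 h and 3.37 and 3.65 CPM at 120 h (log2 fold change -4.08 ± 0.13 (SE), adjusted p = 3.12e-11). This 16.9-fold fall had the smallest p of the list. In bulk RNA, fewer dividing cells and less RNA of these genes per cell cannot be told apart.

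Kinases and spindle proteins moved alike. CDK1, the kinase that triggers mitosis, went from 13.4 and 20.9 to 1.28 and 1.00 CPM (-3.90 ± 0.28). TPX2, which activates Aurora A on spindle microtubules, went from 91.4 and 111 to 18.8 and 19.3 CPM (-2.42 ± 0.10), and KIF23, a motor of the central spindle, from 38.6 and 48.4 to 7.87 and 8.48 CPM (-2.42 ± 0.12). BIRC5 (survivin), a subunit of the chromosomal passenger complex, fell 12.2-fold, from 24.9 and 26.4 to 1.69 and 2.55 CPM. As for 65.2% of all genes tested, the libraries of the 2 times did not overlap for these genes.

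The 12 lowest fold changes among well expressed genes were cell division genes as well. NCAPG, a condensin subunit, stood at 9.02 and 11.6 CPM at 72 h and 0.321 and 0.639 CPM at 120 h (log2 fold change -4.43 ± 0.30 (SE), adjusted p = 2.37e-08). ASPM, a spindle pole protein, went from 19.9 and 25.0 to 0.803 and 1.73 CPM, and KIF2C, a kinesin that takes microtubules apart at the kinetochore, from 30.1 and 40.0 to 1.93 and 2.19 CPM. The second 72 h library was the higher of its pair for all 12 of them. That the libraries of the 2 times did not overlap was a condition for entering this group. NUF2 of the kinetochore, ANLN and CEP55 of the cleavage furrow and midbody, PRC1 of the central spindle, HMMR and DLGAP5 of the spindle, and KIAA0101 (PCLAF), a PCNA partner, were 12.4-fold to 16.1-fold lower, as was CDK1. NCAPG overlaps LCORL and NUF2 overlaps RGS5 in the genome, and since the strand setting of the counting is not given, shared reads cannot be told apart; no gene with at least 10% of their counts overlaps the other 10.

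**Figure D3:**
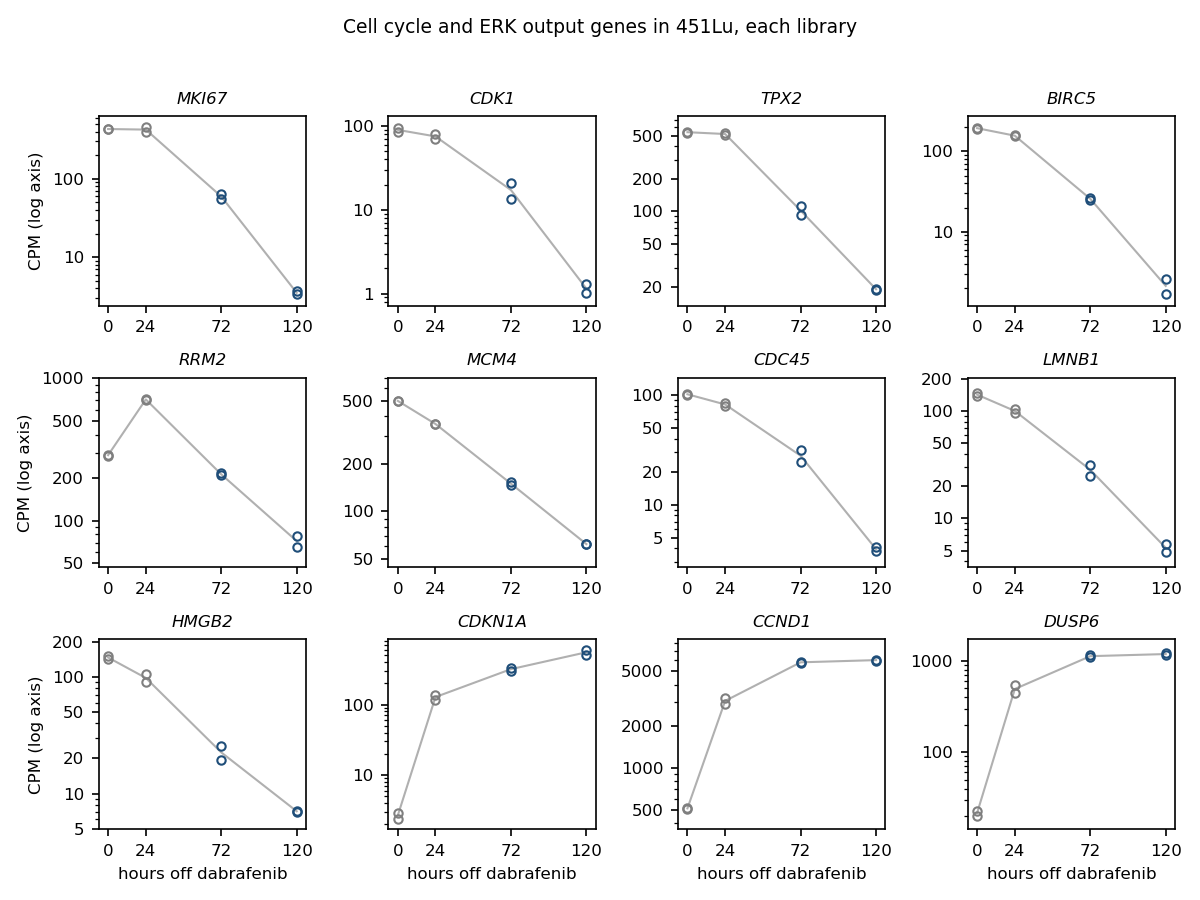
Levels (CPM, log axis) of 12 genes against hours off dabrafenib, where 0 is on drug; each circle is 1 library, blue at 72 h and 120 h and grey before, and lines join the means of the 2 libraries. MKI67 falls from 55.3 and 63.4 CPM to 3.37 and 3.65 CPM between 72 h and 120 h, while CCND1 and DUSP6 stay near their 72 h levels.

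The promoters of these genes were searched for a short element known from mitotic genes. Promoters of mitotic genes often carry the cell cycle homology region, which the DREAM and MuvB complexes bind, and it was searched as TTTGAA on either strand. RefSeq promoters on GRCh38.p14, 250 bases before to 50 bases after each start, were matched by symbol to 6749 of the 13851 genes tested (48.7%), taking only genes with a single start. The element was present in 12 of 16 mitosis list promoters (75.0%), in 70 of 192 promoters of genes at least 2-fold lower (36.5%), in 614 of 6749 tested genes (9.10%) and in 3542 of all 22114 single-start promoters of the table (16.02%). Counted only in the 60 bases before the start, it was in 24 of the 192 (12.5%) and in 85 of the 6749 (1.26%). The 120 bases before the start are shown for 5 such genes, chosen after their values were seen, each read 5′ to 3′ on the strand of the gene, with TTTGAA in capitals. A match in letters is a description and not a bound site.
MKI67, chr10:128126424-128126543, minus strand: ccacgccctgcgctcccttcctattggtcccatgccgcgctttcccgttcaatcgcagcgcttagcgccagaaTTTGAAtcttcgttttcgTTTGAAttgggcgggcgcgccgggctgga
PLK1, chr16:23678769-23678888, plus strand: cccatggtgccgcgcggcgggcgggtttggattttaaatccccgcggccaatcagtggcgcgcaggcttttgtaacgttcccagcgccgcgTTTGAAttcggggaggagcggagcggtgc
CCNB2, chr15:59105026-59105145, plus strand: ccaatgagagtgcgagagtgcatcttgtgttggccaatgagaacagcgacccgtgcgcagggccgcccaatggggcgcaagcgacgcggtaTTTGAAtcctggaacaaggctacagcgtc
BUB1B, chr15:40160949-40161068, plus strand: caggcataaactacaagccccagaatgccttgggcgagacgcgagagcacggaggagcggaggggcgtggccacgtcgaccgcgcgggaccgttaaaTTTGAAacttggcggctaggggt
NCAPG, chr4:17810859-17810978, plus strand: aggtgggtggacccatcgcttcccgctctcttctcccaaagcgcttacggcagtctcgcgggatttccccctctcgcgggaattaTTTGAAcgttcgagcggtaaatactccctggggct
Of these 5 promoters, that of MKI67 carries the element at a pair of places and the others at 1. The 3 not described above fell as well: PLK1, a mitotic kinase, had a log2 fold change of -3.00 ± 0.19, CCNB2, a B-type cyclin, of -3.47 ± 0.25, and BUB1B of the spindle checkpoint of -3.62 ± 0.27.

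DNA replication genes fell as well, with a smaller median change. Of 29 tested, 27 fell and none was called higher, with a median log2 fold change of -1.24 and a summed level of 1454 and 1605 CPM at 72 h and 714 and 718 CPM at 120 h. RRM2, the inducible subunit of ribonucleotide reductase, stood at 207 and 215 CPM at 72 h and 77.8 and 65.6 CPM at 120 h (log2 fold change -1.56 ± 0.072 (SE), adjusted p = 7.58e-10). MCM4 and MCM7 of the replicative helicase went from 146 and 153 to 61.9 and 62.2 CPM and from 147 and 174 to 63.6 and 68.4 CPM, so that all 120 h values lay below all 72 h values. CDC45, which loads onto that helicase as origins fire, fell from 24.6 and 31.4 to 4.10 and 3.74 CPM (-2.84 ± 0.15). The 2 members not called were CCNE1, cyclin E1 (13.5 and 11.5 CPM at 72 h and 11.1 and 11.7 CPM at 120 h), and GINS3, a helicase cofactor (9.24 and 7.01 CPM at 72 h and 6.99 and 4.38 CPM at 120 h). GINS3 was called lower without the first 120 h library (adjusted p = 0.00906), under library totals alone (0.037) and with no filter (0.0491). MCM7 overlaps AP4M1, which may share reads with it.

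The E2F element of S phase promoters, searched as TTTCCCGC on either strand, was found in 6 of 21 replication list promoters (28.6%), in 1 of 16 mitosis list promoters (6.25%), in 15 of 192 promoters of genes at least 2-fold lower (7.81%), in 2.68% of tested genes and in 1.60% of all promoters. TTTGAA was found in 1 of the 21 replication promoters (4.76%). The CRE, M-box, serum response, interferon-stimulated response and NF-kB elements were searched as well. CRE was in 14 of 192 promoters of genes at least 2-fold lower (7.29%) and in 6 of 130 at least 2-fold higher (4.62%). It was in 3 of 21 replication list promoters (14.3%) and in 3.73% of tested genes. The NF-kB element was searched as 1 fixed sequence with no variable letter, so other forms of the site were not counted. That exact sequence was in 1 of 16 promoters of the cytokine and NF-kB target list (6.25%) and in 0.207% of tested genes. A promoter without it may still hold another form of the site, so these shares do not tell how many promoters have an NF-kB site. The 3 promoters shown were chosen after their values were seen. They carry the E2F element on the opposite strand, so that the capitals read as its reverse complement. TTTGAA, TTTCCCGC and the AP-1 element below do not contain one another.
CDT1, chr16:88803669-88803788, plus strand: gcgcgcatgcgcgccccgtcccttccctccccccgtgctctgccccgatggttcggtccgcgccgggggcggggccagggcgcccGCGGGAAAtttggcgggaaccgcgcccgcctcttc
TYMS, chr18:657533-657652, plus strand: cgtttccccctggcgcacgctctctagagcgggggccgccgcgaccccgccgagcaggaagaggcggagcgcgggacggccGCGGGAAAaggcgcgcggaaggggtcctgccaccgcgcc
RFC3, chr13:33818029-33818148, plus strand: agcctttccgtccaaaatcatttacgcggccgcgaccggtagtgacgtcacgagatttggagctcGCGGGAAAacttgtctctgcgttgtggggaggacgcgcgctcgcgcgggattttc
CDT1, which licenses origins, had a log2 fold change of -1.88 ± 0.26, TYMS, which makes thymidylate, of -1.70 ± 0.13, and RFC3, a clamp loader subunit, of -2.05 ± 0.16 (adjusted p = 4.68e-05, 8.13e-08 and 8.91e-08). TYMS overlaps ENOSF1, which had more counts than TYMS.

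Genes that restrain the cycle did not move one way. CDKN1A, the inhibitor p21, stood at 334 and 304 CPM at 72 h and 603 and 506 CPM at 120 h and rose in both libraries (log2 fold change 0.80 ± 0.085 (SE), adjusted p = 3.24e-06). CDKN2C, the inhibitor p18, fell from 46.4 and 48.9 to 21.5 and 23.6 CPM (-1.08 ± 0.093). Among 24 such inhibitors and targets of p53, 4 rose and 5 fell, with a median of -0.067, and scaling by library totals alone left 2 higher. The share of this list called in either direction, 37.5%, was near the 32.7% of all genes tested. The p53 target PMAIP1 (NOXA), a death-promoting BH3 protein, fell 2.50-fold (195 and 222 CPM at 72 h and 87.7 and 78.6 CPM at 120 h), and GADD45A, another p53 target, fell from 46.4 and 51.8 to 34.0 and 25.6 CPM. MDM2, the p53 inhibitor and target, stood at 79.4 and 91.9 CPM at 72 h and 81.9 and 81.2 CPM at 120 h (adjusted p = 0.52). MDM2 overlaps another gene, which bears the name CPM, and may share reads with it.

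Markers used for senescent cells changed in larger numbers. Of 13 tested, 8 rose and 4 fell. LMNB1, the nuclear lamin B1, fell from 25.1 and 31.7 to 4.90 and 5.75 CPM (log2 fold change -2.43 ± 0.14 (SE), adjusted p = 7.87e-09), and HMGB2, a chromatin protein, from 19.4 and 25.6 to 7.15 and 6.93 CPM (-1.68 ± 0.16). IGFBP3, a secreted binder of insulin-like growth factors, rose from 456 and 492 to 1503 and 1286 CPM (log2 fold change 1.56 ± 0.10 (SE), adjusted p = 2.24e-08). The list also holds CDKN2A, the inhibitor p16, which fell (53.8 and 59.6 CPM at 72 h and 45.3 and 43.4 CPM at 120 h, -0.36 ± 0.079), and MMP3, which rose. LMNB1 and HMGB2 are low in senescent cells and IGFBP3, CDKN1A and MMP3 are high in them, while the fall of CDKN2A runs the other way. Whether the cells were senescent was not tested.

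Inflammatory cytokines and targets of NF-kB had the highest median change of the 30 lists. Of 19 tested, 16 rose, none fell, and all 19 fitted changes were above 0, with a median log2 fold change of 1.20. Their summed level went from 5853 and 4008 CPM at 72 h to 17193 and 12554 CPM at 120 h. IL1B, the cytokine interleukin 1 beta, stood at 475 and 174 CPM at 72 h and 2936 and 1703 CPM at 120 h. The first library was the higher of the pair at both times (log2 fold change 2.84 ± 0.31 (SE), adjusted p = 4.48e-06). IL1B is also among the 12 highest changes below. LIF, a leukemia inhibitory cytokine that signals through STAT3, rose from 3134 and 2267 to 6463 and 5139 CPM (1.10 ± 0.16).

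Adhesion and chemokine genes were among those that rose. ICAM1, which lets leukocytes adhere, stood at 1337 and 798 CPM at 72 h and 5406 and 4075 CPM at 120 h (log2 fold change 2.15 ± 0.17 (SE), adjusted p = 1.08e-07). CCL20, a chemokine for CCR6 cells, rose from 41.3 and 31.0 to 186 and 118 CPM (2.09 ± 0.18), and CXCL8 (interleukin 8), a neutrophil chemokine, from 339 and 278 to 1126 and 664 CPM (1.54 ± 0.16). Feedback genes of the pathway followed: BIRC3, a ubiquitin ligase that restrains cell death, from 56.9 and 45.5 to 229 and 182 CPM and NFKBIA, the inhibitor of NF-kB, from 37.9 and 36.6 to 94.4 and 75.9 CPM. The times did not overlap in any of these 5 genes, nor in 65.2% of all genes tested. The 3 members tested and not called were IL6, CSF2 and CCL2, with CCL2, a monocyte chemokine, at 44.0 and 27.4 CPM at 72 h and 47.3 and 31.7 CPM at 120 h; its log2 fold change of 0.16 became 0.53 without the first 72 h library (adjusted p = 0.0464), -0.16 without the second and -0.18 without the first 120 h library. Outside the list, the chemokine gene CCL3, whose reads may be shared with its near copy CCL3L3, fell from 149 and 132 to 94.0 and 64.5 CPM (-0.82 ± 0.12).

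The 12 highest fold changes among well expressed genes were mostly of secreted factors of inflammation and growth. As for the 12 lowest, only genes whose libraries did not overlap between the 2 times could enter this group. C3, the central complement component, stood at 29.8 and 15.7 CPM at 72 h and 356 and 201 CPM at 120 h and rose 12.4-fold (log2 fold change 3.64 ± 0.24 (SE), adjusted p = 2.24e-08), with some reads possibly shared with the overlapping GPR108. IL33, an alarmin, rose from 8.17 and 5.40 to 48.4 and 34.9 CPM (2.64 ± 0.18), and TNFSF15, a TNF family ligand, from 2.69 and 0.474 to 22.2 and 6.84 CPM (3.27 ± 0.58). For TNFSF15 the replicates differ widely: its log2 fold change was 4.93 without the first 72 h library and 2.15 without the first 120 h library, and DESeq2 did not call it (adjusted p = 0.217). PTGS2 (cyclooxygenase 2), which makes prostaglandins, rose from 1.93 and 1.52 to 14.3 and 8.58 CPM. FGF2, a fibroblast growth factor whose gene overlaps NUDT6, rose from 3.33 and 2.18 to 31.0 and 19.2 CPM (3.21 ± 0.26), and PDGFB, a platelet-derived growth factor, from 9.67 and 10.2 to 57.9 and 58.7 CPM (2.55 ± 0.11), with replicates that nearly coincide. FAM20C, a kinase of secreted proteins, and OSBP2, an oxysterol binding protein, rose by 3.30 and 2.91 from low levels of 1.54 to 14.9 CPM and 1.69 to 12.5 CPM.

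**Figure D4:**
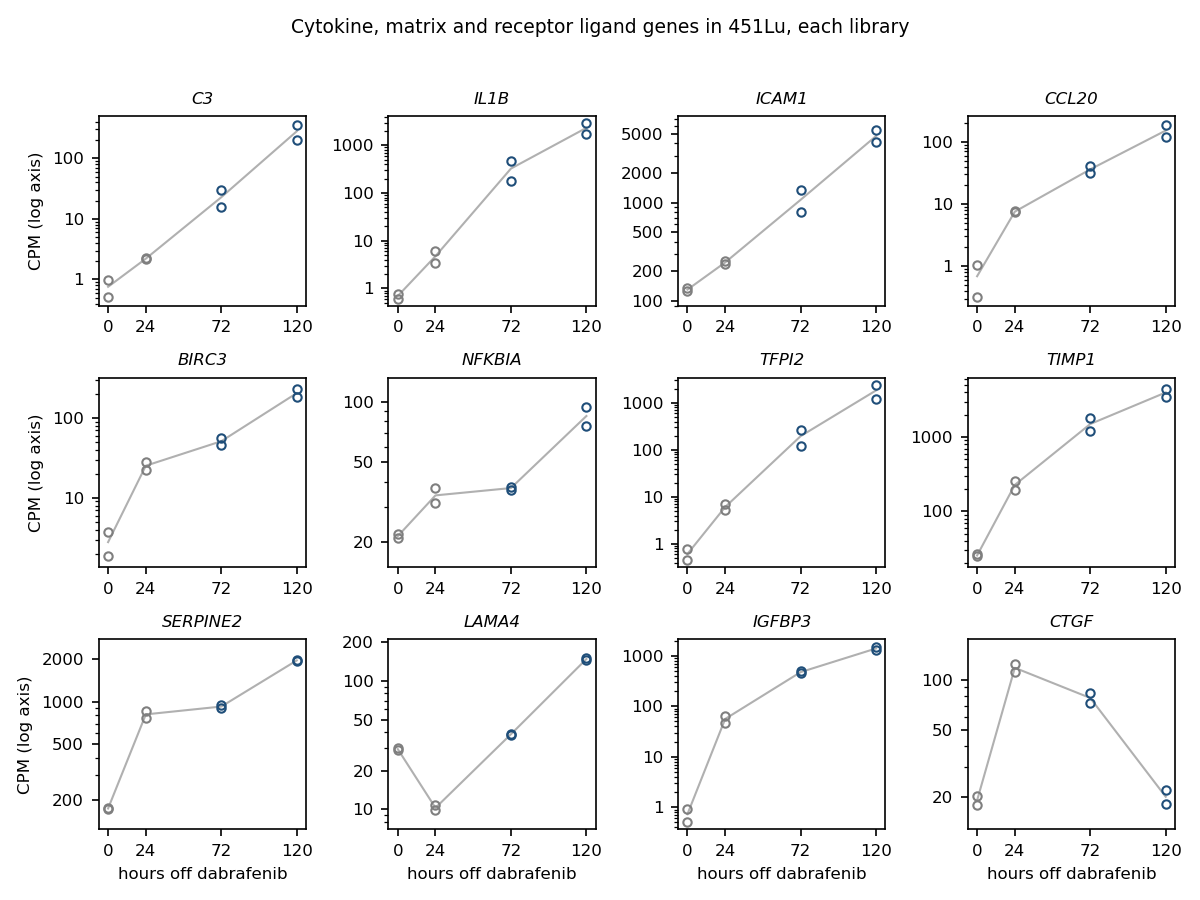
Levels (CPM, log axis) of 12 genes of cytokines, matrix and secreted factors against hours off dabrafenib, drawn as in the plot of cell cycle genes. C3, IL1B, TFPI2 and ICAM1 rise from 72 h to 120 h with the first library above the second at both times, whereas SERPINE2 and LAMA4 rise with nearly coinciding replicates and CTGF falls to about its on-drug level.

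Of 18 genes of matrix proteases and their inhibitors, 11 rose, 7 were not called and none was called lower, with a median of 0.45 and summed levels of 15367 and 12617 CPM at 72 h and 22010.1 and 18539 CPM at 120 h. TIMP1, an inhibitor of metalloproteinases, stood at 1795 and 1204 CPM at 72 h and 4493 and 3472 CPM at 120 h (log2 fold change 1.41 ± 0.15 (SE), adjusted p = 3.35e-06). SERPINE2, an inhibitor of thrombin and urokinase, rose from 897 and 954 to 1984 and 1954 CPM with close replicates (log2 fold change 1.09 ± 0.060 (SE), adjusted p = 3.16e-09). TFPI2, an inhibitor of serine proteases in the matrix, was not in the list but was among the highest changes, with 269 and 122 CPM at 72 h and 2449 and 1234 CPM at 120 h (3.24 ± 0.29). MMP10 (stromelysin 2) rose from 3.76 and 1.90 to 34.0 and 17.2 CPM (3.21 ± 0.32), and its reads may be shared with the overlapping pseudogene WTAPP1. CTSB, the protease cathepsin B, rose from 1478 and 1327 to 2283 and 1988 CPM. MMP1, the interstitial collagenase, stood at 3463 and 2194 CPM at 72 h and 3919 and 2761 CPM at 120 h and was not called (adjusted p = 0.324). Single libraries decided its value: the log2 fold change of 0.24 became 0.61 without the first 72 h library (adjusted p = 0.0131) and 0.46 without the second 120 h library (0.0281), but -0.065 without the second 72 h library and -0.048 without the first 120 h library. With no filter MMP1 was called higher. Without the first 120 h library, or under library totals alone, 1 member of the list was called lower.

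Promoters of the genes that rose were searched for the AP-1 element, TGANTCA on either strand, to which FOS and JUN proteins bind. It was in 14 of 130 promoters of genes at least 2-fold higher (10.8%), in 4 of 192 promoters of genes at least 2-fold lower (2.08%), in 4.40% of tested genes and in 8.05% of all promoters. The last 150 bases before the start of 3 genes that rose, chosen after their values were seen, show the AP-1 element in capitals.
MMP10, chr11:102780629-102780778, minus strand: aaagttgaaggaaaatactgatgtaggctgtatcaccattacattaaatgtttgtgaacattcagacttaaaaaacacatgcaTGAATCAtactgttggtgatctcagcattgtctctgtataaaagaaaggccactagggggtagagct
TFPI2, chr7:93890754-93890903, minus strand: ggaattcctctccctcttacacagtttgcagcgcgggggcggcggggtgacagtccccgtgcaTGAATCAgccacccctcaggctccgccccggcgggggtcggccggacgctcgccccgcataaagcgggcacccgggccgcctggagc
CXCL8, chr4:73740419-73740568, plus strand: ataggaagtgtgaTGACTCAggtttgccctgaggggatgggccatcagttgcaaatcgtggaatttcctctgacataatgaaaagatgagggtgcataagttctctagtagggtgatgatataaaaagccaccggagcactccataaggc
MMP10 and TFPI2 carry the same 7 letters TGAATCA, and CXCL8 carries TGACTCA farther from its start. Over all genes called, the share was 4.60% of 1130 promoters of higher genes and 4.56% of 1206 promoters of lower genes, and in the 60 bases before the start the element was in 2 of the 130 (1.54%) and in 0.815% of tested genes.

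Adhesion receptors and basement membrane genes rose in larger numbers than they fell. Of 20 integrin and laminin genes, 11 rose and 2 fell. LAMA4, the laminin alpha 4 chain, stood at 38.8 and 38.2 CPM at 72 h and 150.5 and 146 CPM at 120 h (log2 fold change 1.95 ± 0.069 (SE), adjusted p = 5.98e-11), a 3.85-fold rise with close replicates. ITGB8 and ITGB3, beta subunits of integrins, rose from 176 and 177 to 329 and 413 CPM and from 354 and 303 to 551 and 533 CPM, and LAMB2, the laminin beta 2 chain, from 180.1 and 171 to 255 and 252 CPM. The 2 called lower changed little: LAMB1 had a log2 fold change of -0.22 ± 0.055 and LAMA1 of -0.21 ± 0.071. LAMA1 lost its call without either 72 h library (adjusted p = 0.0757 and 0.106) and from the 4 libraries alone (0.0624), and without the first 120 h library both lost it (0.308 for LAMA1, 0.0547 for LAMB1). LAMB1 overlaps DLD.

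Collagen VI genes rose together. COL6A2 stood at 546 and 539.7 CPM at 72 h and 994 and 829 CPM at 120 h (0.75 ± 0.080) and COL6A1 at 685 and 718 CPM at 72 h and 1151 and 1061 CPM at 120 h (0.66 ± 0.073). Of 11 collagen genes tested, 4 rose and none was called lower, with COL9A3, a chain of collagen IX, at 94.0 and 113 CPM at 72 h and 156 and 129 CPM at 120 h and COL18A1, a basement membrane collagen, at 7.41 and 6.92 CPM at 72 h and 11.7 and 9.49 CPM at 120 h. The log2 fold change of COL9A3 was 0.46, or 0.30 without the first 120 h library, and COL9A3 overlaps TCFL5. COL18A1, which overlaps SLC19A1, lost its call (adjusted p = 0.0256) without either 72 h library (0.0622 and 0.154), without the first 120 h library (0.216), with DESeq2 (0.192) and with library totals alone (0.0586). Of the members that were not tested, COL4A2, a chain of collagen IV, had 34 counts at 72 h and 1 at 120 h. With any library left out, 1 or 2 members of the list were called lower. With no filter 2 were called lower, and with a replicate term in the fit 1 was.

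FN1, which encodes the matrix glycoprotein fibronectin, took the largest share of counts in these libraries, 5.41% and 4.57% at 72 h and 6.15% and 6.25% at 120 h. Its level was 56486 and 46279 CPM at 72 h and 67896 and 68855 CPM at 120 h (log2 fold change 0.41 ± 0.094 (SE), adjusted p = 0.00312). This call rests on the second 72 h library: without it the log2 fold change was 0.26 with an adjusted p of 0.0631. The other 4 genes with the largest shares, MT-CO1, GAPDH, PKM and MT-ND4, each held between 0.773% and 1.32% of counts in these 4 libraries. MT-ND4 overlaps MT-ND4L. GAPDH and PKM, both enzymes of glycolysis, stood at 9582 and 10130.2 CPM at 72 h and 9374 and 9961 CPM at 120 h and at 9525 and 9135 CPM at 72 h and 9392 and 9638 CPM at 120 h, and neither was called.

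Of 24 mesenchymal and invasive genes, 12 rose and 4 fell, with a median of 0.33. LOXL2, a crosslinker of collagen whose gene overlaps ENTPD4, rose from 142 and 126 to 259 and 232 CPM (log2 fold change 0.88 ± 0.070 (SE), adjusted p = 1.51e-07). NT5E (CD73), which makes extracellular adenosine, rose from 1267 and 1202 to 1786 and 1735 CPM, ITGA5, the fibronectin receptor subunit, from 1169.5 and 949.6 to 1825 and 1577 CPM, and INHBA, which forms activin A, from 23.6 and 12.3 to 146 and 66.6 CPM (2.59 ± 0.31). VIM, the mesenchymal filament vimentin, ran against the list's name and fell (7205 and 7738 CPM at 72 h and 5699 and 5923 CPM at 120 h, -0.36 ± 0.055). CDH1, the epithelial cadherin, was also among the 4 that fell (adjusted p = 0.0424). Its call rests on few counts, 5 over the 72 h libraries and 0 at 120 h.

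Of 15 TGF-beta pathway genes tested, 8 rose and 1 fell, or 2 without the first 120 h library. SKIL, a repressor induced by the pathway, stood at 39.2 and 34.4 CPM at 72 h and 86.2 and 76.7 CPM at 120 h (log2 fold change 1.15 ± 0.090 (SE), adjusted p = 1.2e-07), and LTBP1, which stores latent TGF-beta in the matrix, rose from 8.70 and 5.59 to 17.2 and 15.5 CPM. TGFBR1, the type I receptor, was the member that fell (554 and 511 CPM at 72 h and 323 and 390.5 CPM at 120 h, -0.58 ± 0.074).

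Targets of YAP and TEAD split. CTGF, a matricellular protein and a standard YAP target, fell 3.92-fold, from 72.7 and 82.7 to 18.0 and 21.9 CPM (log2 fold change -1.97 ± 0.11 (SE), adjusted p = 2.43e-09), and its 120 h level was close to 17.9 and 20.1 CPM on drug. CRIM1, a transmembrane regulator of BMPs, rose from 1.72 and 1.33 to 5.38 and 3.47 CPM, but it overlaps FEZ2, which had more counts, so part of its counts may belong to that gene. YAP1 itself stood at 189.6 and 190.0 CPM at 72 h and 219 and 235 CPM at 120 h, with a log2 fold change of 0.26 ± 0.058 that lost its call under library totals alone (adjusted p = 0.0512). In all, 5 of 14 rose and 2 fell; without the second 72 h library these were 3 and 1, without the first 72 h or the first 120 h library 1 fell, DESeq2 gave 1 lower, and the median of 0.032 turned to -0.070 under library totals alone, which also left 3 higher.

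Receptor tyrosine kinases rose more often than they fell, 9 against 2 of 16. FGFR1, a receptor for FGF2, stood at 199.8 and 189 CPM at 72 h and 343 and 336 CPM at 120 h (log2 fold change 0.80 ± 0.073 (SE), adjusted p = 5.77e-07). INSR, the insulin receptor, rose from 41.0 and 38.5 to 88.3 and 73.8 CPM (1.03 ± 0.10), DDR1, a collagen receptor, from 29.0 and 33.1 to 58.1 and 59.5 CPM (0.92 ± 0.091), and AXL, a receptor tied to drug tolerance in melanoma, from 16.2 and 11.4 to 25.5 and 27.8 CPM (0.96 ± 0.15). KIT, the receptor of melanocyte precursors, fell 4.56-fold, from 9.56 and 11.5 to 1.69 and 3.01 CPM (log2 fold change -2.19 ± 0.22 (SE), adjusted p = 1.88e-06). EPHA2, an ephrin receptor, had 22 counts at 72 h and 1 at 120 h, a ratio of 25.9 with a 95% counting interval of 4.19 to 1071 (exact Clopper-Pearson). Without the second 72 h library, or from the 4 libraries alone, 1 receptor gene was called lower.

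RNA levels of genes listed as ERK pathway output moved in both directions, mostly by small amounts. DUSP6, the phosphatase that inactivates ERK, stood at 1157 and 1087 CPM at 72 h and 1221 and 1146 CPM at 120 h (adjusted p = 0.484), and CCND1, cyclin D1, at 5894 and 5738 CPM at 72 h and 6083 and 5985 CPM at 120 h (adjusted p = 0.502); neither was called. SPRY4, a Sprouty inhibitor of the pathway, still rose, from 208 and 205 to 268 and 257 CPM (log2 fold change 0.35 ± 0.056 (SE), adjusted p = 0.000193), as did DUSP5, a nuclear ERK phosphatase, from 238 and 206 to 434 and 371 CPM (0.86 ± 0.081), and IER3, an early response survival gene, from 1272 and 1252 to 2354 and 1941 CPM. Of 22 genes in the list, 7 rose and 6 fell, with a median of 0.035 that turned to -0.066 under library totals alone. The 6 that fell included EPHA2 and FOSL1, an AP-1 subunit (76.1 and 80.7 CPM at 72 h and 61.5 and 69.7 CPM at 120 h). FOSL1 was not called without the second 72 h library (adjusted p = 0.149) or without the first 120 h library (0.179), and either omission left 3 members lower.

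Immediate-early genes and AP-1 factors moved in both directions. EGR1, a growth-induced zinc finger factor, stood at 379 and 334 CPM at 72 h and 464 and 411 CPM at 120 h (log2 fold change 0.29 ± 0.076 (SE), adjusted p = 0.00693); it lost its call without the second 72 h library (adjusted p = 0.139) and without the first 120 h library (0.0973), with a change of 0.19 in each, as under library totals alone. NR4A3, a nuclear receptor, fell from 16.9 and 21.4 to 7.95 and 7.85 CPM (log2 fold change -1.28 ± 0.14 (SE), adjusted p = 4.33e-06). KLF6, a Krüppel-like factor, fell from 226 and 254 to 153 and 159.6 CPM (-0.62 ± 0.063). The times did not overlap in either gene, as in 65.2% of all genes tested. In that list of 20, 6 rose and 4 fell, with a median of 0.033 that turned to -0.070 under library totals alone. Of 10 AP-1 factors, 2 were called higher and 3 lower, but single libraries decided these: without the second 72 h library 0 were higher and 1 lower, without the first 120 h library 0 were higher, and without the second 120 h library 4 were higher, while library totals alone and DESeq2 gave 1 higher. JUNB, a JUN family factor, stood at 174 and 161 CPM at 72 h and 212 and 162 CPM at 120 h and was called only without the second 120 h library (0.33, adjusted p = 0.0067).

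Of 25 melanocyte genes, 9 fell and 3 rose, with a median of -0.11. MITF, the master regulator of melanocytes, stood at 274 and 281 CPM at 72 h and 266 and 292 CPM at 120 h and was not called (adjusted p = 0.942), and neither was PMEL, a melanosome matrix protein, at 344 and 456 CPM at 72 h and 372 and 424 CPM at 120 h (adjusted p = 0.954). PMEL overlaps CDK2. MLANA, a melanosome antigen, fell from 7.09 and 10.9 to 3.37 and 4.84 CPM (log2 fold change -1.16 ± 0.21 (SE), adjusted p = 0.000505), with KIAA2026, which overlaps it, holding more counts than MLANA. SLC45A2 and SLC24A5, transporters of the melanosome, fell from 11.5 and 13.6 to 4.66 and 6.11 CPM and from 9.67 and 10.2 to 2.73 and 4.65 CPM, and GPR143, its receptor, changed by -0.81 ± 0.13 on the log2 scale; MYEF2 overlaps SLC24A5. TRPM1, a channel gene of melanocytes, had 23 counts at 72 h and 0 at 120 h, at least 9.04-fold lower against a floor of 3 counts over both libraries, and TYRP1, a pigment enzyme, 11 counts and 0, at least 4.32-fold lower by the same floor. The 95% counting intervals of these ratios (exact Clopper-Pearson) start lower, at 6.78 for TRPM1 and 2.96 for TYRP1.

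DCT, another pigment enzyme, stood at 0.645 and 1.71 CPM at 72 h and 0.161 and 0.274 CPM at 120 h (log2 fold change -2.45 ± 0.71 (SE), adjusted p = 0.015), and lost its call without the second 72 h library (-1.56, adjusted p = 0.275) and without the first 120 h library (0.0736). SOX10, which activates MITF, was slightly higher, at 188 and 203 CPM at 72 h and 222 and 244 CPM at 120 h (log2 fold change 0.26 ± 0.064 (SE), adjusted p = 0.00567), a call lost without the first 72 h library (adjusted p = 0.0651), without the second 120 h library (0.0817) and under library totals alone (0.0862). Without the second 72 h library, or from the 4 libraries alone, 5 of the 25 melanocyte genes fell, and without the first 72 h library, without the second 120 h library or under library totals alone, 1 rose.

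Among 9 neural crest genes tested, 3 rose and none fell, with a median of 0.074 that turned to -0.029 under library totals alone. FOXC1, a forkhead factor, stood at 12.8 and 12.5 CPM at 72 h and 21.7 and 22.2 CPM at 120 h (log2 fold change 0.79 ± 0.12 (SE), adjusted p = 0.000137), and SEMA3B, a semaphorin, rose from 6.12 and 7.68 to 13.3 and 12.4 CPM (0.89 ± 0.17). NGFR, the nerve growth factor receptor that marks neural crest-like melanoma cells, stood at 7.84 and 7.30 CPM at 72 h and 8.27 and 10.4 CPM at 120 h and was not called (adjusted p = 0.251). SOX9, the third that rose, stood at 3.01 and 1.42 CPM at 72 h and 6.10 and 2.92 CPM at 120 h, and its times overlapped; its adjusted p of 0.0376 passed the threshold but reached 0.542 without the first 120 h library and 0.359 without the second 72 h library, and it was not called in 8 of the alternatives in all.

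Of 17 MHC class I genes tested, 8 rose, 9 were not called and none was called lower. HLA-E stood at 168 and 153 CPM at 72 h and 302 and 265 CPM at 120 h (log2 fold change 0.83 ± 0.075 (SE), adjusted p = 6.23e-07), and HLA-B, a classical class I heavy chain, rose from 35.8 and 43.9 to 74.8 and 68.4 CPM. TAPBP, which helps load peptides onto such chains, rose from 133 and 121 to 184 and 169.5 CPM. B2M, the shared light chain, stood at 355 and 383 CPM at 72 h and 399.5 and 391 CPM at 120 h and was not called (adjusted p = 0.196). The heavy chain genes resemble one another, and the counting of reads that fit more than 1 of them is not given, so their shares of the rise are uncertain; HLA-B also overlaps HLA-C.

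Interferon response genes split into opposite movements, 7 higher and 6 lower of 22. IFIT2 and IFIT3, antiviral proteins induced through IRF3, fell, with mean levels (SD, n = 2) of 40.5 ± 2.18 CPM at 72 h and 14.5 ± 0.336 CPM at 120 h for the former (log2 fold change -1.49 ± 0.10 (SE), adjusted p = 3.09e-08) and with 42.2 and 41.1 CPM at 72 h and 16.1 and 17.3 CPM at 120 h for the latter (-1.32 ± 0.089), and IFIT1 from 14.2 and 16.7 to 6.18 and 7.48 CPM. IFI6, an interferon-induced mitochondrial protein, rose from 13.3 and 10.9 to 32.0 and 35.6 CPM (log2 fold change 1.48 ± 0.12 (SE), adjusted p = 1.8e-07). The 3 IFIT genes overlap LIPA, which had more counts than each of them.

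Regulators of cell death leaned upward, 7 higher and 4 lower of 15. MCL1, a survival protein, rose from 873 and 907 to 1196 and 1236 CPM (log2 fold change 0.45 ± 0.053 (SE), adjusted p = 8.64e-06), and TNFRSF10B, the death receptor for TRAIL, from 291 and 276 to 441 and 412 CPM (0.59 ± 0.063). TNFRSF10B overlaps RHOBTB2. BNIP3, a mitophagy receptor induced by hypoxia, rose from 164 and 165 to 252 and 244 CPM, while PMAIP1 fell as given above. Without the second 72 h library or the first 120 h library, and with DESeq2, 2 of the 15 were called lower.

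Stress pathways differed from each other. Of 21 genes of the integrated and endoplasmic reticulum stress response, 12 rose and 1 fell, 0 to 2 with a library left out, 0 with DESeq2, and 2 under library totals alone, with no filter or with the replicate term. ASNS, asparagine synthetase, rose from 122 and 112 to 172 and 171 CPM (log2 fold change 0.55 ± 0.060 (SE), adjusted p = 4.24e-06), PHGDH, the first enzyme of serine synthesis, from 164 and 160.3 to 208 and 208 CPM, and XBP1, a factor of the unfolded protein response, from 263 and 262 to 353 and 331 CPM. DNAJB9, a chaperone of that response, rose from 71.2 and 64.5 to 157 and 123 CPM, but overlaps PNPLA8 and THAP5. Heat shock genes split under TMM scaling: HSPA8, the constitutive HSP70, rose from 2165 and 2032 to 3414 and 3502 CPM (log2 fold change 0.72 ± 0.055 (SE), adjusted p = 9.03e-08), BAG3, its cochaperone, from 33.3 and 33.6 to 49.1 and 48.6 CPM, while HSPD1 of mitochondria fell from 584 and 631 to 438 and 476 CPM (-0.41 ± 0.060) and HSPA4, an HSP110 family member, from 430.1 and 402 to 350.1 and 344 CPM. In all, 4 of 13 rose and 3 fell, with 2 higher without the first 72 h library and 2 higher against 6 lower under library totals alone.

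Cholesterol synthesis genes went down together. Of 19 tested, 13 fell and none was called higher, with a median of -0.36, or -0.34 with genes at 0 counts set to their bound. FDPS, which makes farnesyl diphosphate, stood at 174 and 172 CPM at 72 h and 118 and 116 CPM at 120 h, and the replicates of each time nearly coincided (log2 fold change -0.57 ± 0.057 (SE), adjusted p = 1.67e-06). IDI1, an enzyme of isoprenoid synthesis, fell from 73.3 and 73.0 to 51.5 and 46.3 CPM, and HMGCS1, which makes the precursor of mevalonate, from 41.3 and 39.1 to 24.3 and 22.4 CPM (-0.78 ± 0.091). Without the first 72 h library 1 member was called higher.

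Glycolysis and hypoxia genes moved the other way, 12 higher and 2 lower of 25, with 0 lower without the second 72 h library, without the first 120 h library or from the 4 libraries alone. VEGFA, the angiogenic factor, stood at 1138 and 1141 CPM at 72 h and 1669 and 1705 CPM at 120 h (log2 fold change 0.57 ± 0.062 (SE), adjusted p = 4.33e-06). SLC2A1, the glucose transporter GLUT1, rose from 177 and 173 to 266 and 265 CPM, and SLC16A3, the lactate exporter MCT4, whose gene overlaps CSNK1D, from 518 and 504 to 851 and 744 CPM. The large glycolytic enzyme genes ENO1 and ALDOA were not called (adjusted p = 0.77 and 0.848).

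Lysosomal genes were divided, 9 higher and 5 lower of 23, or 3 lower without the second 72 h library, and their median of 0.021 turned to -0.081 under library totals alone. SQSTM1 (p62), the autophagy receptor, rose from 646 and 560.0 to 1018 and 939 CPM (log2 fold change 0.70 ± 0.075 (SE), adjusted p = 3.31e-06), CTSA, cathepsin A, from 400.4 and 371 to 592 and 532 CPM, and ATP6AP1, an accessory subunit of the proton pump, from 244 and 240.4 to 344 and 326 CPM. The pump subunits ATP6V1A and ATP6V1H fell by 0.32 and 0.29 on the log2 scale. SQSTM1 overlaps MGAT4B and CTSA overlaps PLTP.

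Genes of protein synthesis and respiration drifted down by small amounts. Of 21 ribosome biogenesis genes, 12 fell and none was called higher (1 without the second 120 h library), led by NPM1, the nucleolar chaperone nucleophosmin (743 and 760.1 CPM at 72 h and 508 and 507 CPM at 120 h, log2 fold change -0.57 ± 0.052 (SE), adjusted p = 7.71e-07), NCL, nucleolin (-0.49 ± 0.052), and FBL, fibrillarin (-0.62 ± 0.068). Of 24 cytosolic ribosomal protein genes, 15 fell and none was called higher, with a median of -0.24 and RPS2 at 503 and 511 CPM at 72 h and 369.9 and 345 CPM at 120 h (-0.50 ± 0.061). Ribosomal protein genes have many near-identical pseudogene copies, so their counts depend on a step that is not given. Of 22 nuclear genes of the respiratory chain, 15 fell and none was called higher, with a median of -0.24, among them UQCRC2 of complex III (193 and 204 to 151 and 148 CPM, -0.41 ± 0.058), SDHB of complex II (152 and 172 to 116 and 125 CPM) and ATP5C1 of ATP synthase (96.7 and 102 to 68.5 and 74.2 CPM). These shifts were small, yet the libraries of the 2 times did not overlap in 22 of the 24 ribosomal protein genes and in 20 of the 22 respiratory chain genes, or 91.7% and 90.9% against 65.2% of all genes tested.

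Genes encoded in mitochondrial DNA did not show the fall of the nuclear ones. Of 13, 5 were called higher and none lower, with a median of 0.16. This called share of 38.5% was near the 32.7% of all genes tested. The libraries of the 2 times did not overlap in 5 of the 13 (38.5%), against 65.2% of all genes tested. MT-ND5, a complex I subunit, stood at 3168 and 2878 CPM at 72 h and 3787 and 4861 CPM at 120 h (log2 fold change 0.52 ± 0.091 (SE), adjusted p = 0.00041), or 0.32 without the second 120 h library, and MT-CYB of complex III at 1802 and 1618 CPM at 72 h and 2121 and 2918 CPM at 120 h (0.56 ± 0.12), or 0.30 without it. The list's count was decided by single libraries: it was 2 without the second 72 h or the second 120 h library, 8 without the first 120 h library, 8 with no filter, 3 from the 4 libraries alone and 2 under library totals alone; 1 was called lower without the second 72 h library. Mitochondrial counts made up 4.47% and 4.23% of all counts at 72 h and 4.35% and 5.08% at 120 h. The part that this higher share in the second 120 h library has in the list's calls was not tested.

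The change after 72 h was then set against the change in the 48 h before it, from 24 h to 72 h, in which 7126 genes (51.4%) were called. Both intervals are 48 h long, and they share the 72 h libraries, which the contrast takes into account. The fitted difference of the 2 changes passed the test for 2833 genes (20.5%), with 1205 (8.7%) more positive after 72 h and 1628 (11.8%) more negative. Without the second 72 h library these were 1478, 533 and 945, without the first 72 h library 1748, 690 and 1058, and DESeq2 gave 1660, 657 and 1003.

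ERK output genes had a higher median change before 72 h than after it. Of 22 genes of that list, 15 were more negative after 72 h than before and 1 was more positive (12 to 15 and 1 with a library left out), with a median change of 0.75 before and 0.035 after. DUSP6 had risen by 1.19 from 24 h to 72 h and changed by 0.077 afterwards (difference -1.11 ± 0.13 (SE), adjusted p = 2.45e-05), and CCND1 had risen by 0.93 against 0.053 (difference -0.87, adjusted p = 9.12e-06). FN1 had risen by 2.71 and NT5E by 1.72 in the earlier interval, against 0.41 and 0.51 in the later one. MITF too had risen, by 0.95, before 72 h and was not called after.

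The median change of cholesterol genes was above 0 before 72 h and below 0 after it. In that list, 14 of 19 were more negative after 72 h than before and none was more positive (12 to 15 with a library left out), with a median of 0.58 before and -0.34 after. HMGCS1 stood at 15.6 and 16.2 CPM at 24 h, before the 72 h and 120 h levels given above, so its rise of 1.34 was followed by a log2 fold change of -0.78 (difference -2.12 ± 0.16 (SE), adjusted p = 1.85e-07).

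Heat shock genes went the opposite way, since 11 of 13 were more positive after 72 h than before and none was more negative (9 to 12 and 0 with a library left out), with a median of -0.65 before and -0.014 after. HSPA8 fell by 0.53 and then rose by 0.72 (difference 1.25 ± 0.10 (SE), adjusted p = 3.11e-07). SLC7A11, the cystine importer, fell from 325 and 321 CPM at 24 h to 82.0 and 86.6 CPM at 72 h and then rose to 119 and 118 CPM (difference 2.43 ± 0.14 (SE), adjusted p = 1.4e-08). Cytokine genes had a positive median in both intervals, 2.15 before and 1.20 after. After 72 h, 3 of 19 were more positive and 5 more negative, against 8.7% and 11.8% of all genes tested. Without the second 72 h library 1 was more positive, and without the first 72 h library 2 were more negative. NFKBIA was among the more positive (difference 1.08, adjusted p = 0.000835). BIRC3 was too (1.00, 0.0102), but not without the second 72 h library (0.192) or with DESeq2 (0.306). IL1B was among the more negative (-3.22, 0.00275), a call lost without the first 72 h library (-1.43, 0.0586).

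Mitosis and replication genes had negative medians in both intervals. These were -2.45 and then -3.09 for mitosis and -1.21 and then -1.24 for replication. MKI67 had log2 fold changes of -2.83 and then -4.08 (difference -1.25 ± 0.20 (SE), adjusted p = 0.000326), and RRM2 of -1.75 and then -1.56 (adjusted p of the difference 0.277). Of 26 mitosis genes, 7 were more negative and 3 more positive after 72 h. The 7 became 2 without the second 72 h library or the first 120 h library, and 11 without the first 72 h library. Of 29 replication genes, 3 were more negative and 2 more positive, with 5 more negative without the second 120 h library and 1 more positive without the first 72 h library. Over all genes tested, 11.8% were more negative and 8.7% more positive.

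**Figure D5:**
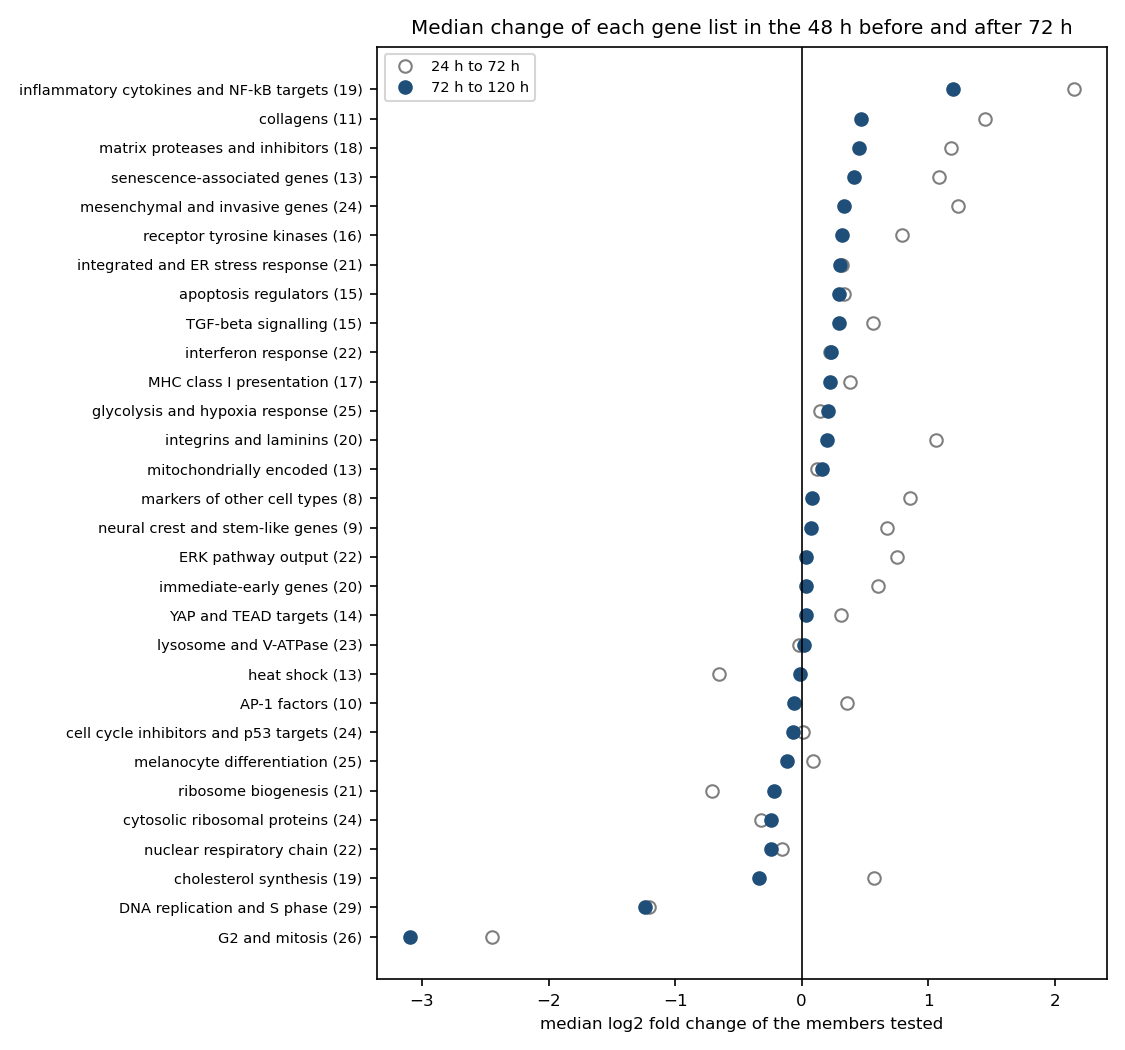
For each of 30 gene lists (tested members in parentheses), the median log2 fold change of the tested members is shown from 24 h to 72 h (open grey circles) and from 72 h to 120 h (filled blue circles), with genes at 0 counts set to their bound. Cholesterol synthesis lies at 0.58 before and -0.34 after, ERK output at 0.75 and 0.035, and mitosis at -2.45 and -3.09; both intervals share the 72 h libraries.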

How the data were processed

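RNA-seq of 451Lu BR melanoma cells was deposited as raw counts per gene, whole numbers in 1 table of all 16 libraries, of which the 8 of 451Lu were used. Before that, the authors mapped the reads to GRCh38, with TopHat2 2.1.0 and Bowtie 1.0.0 listed in the submitters' processing notes. How reads were counted (tool, annotation release, strand setting, reads with several matches) is not given in the sources used here. Counts without a strand setting cannot separate overlapping genes.

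All 8 libraries (4 groups of 2: on drug, 24 h, 72 h and 120 h off drug) were fitted together, so that the spread rests on 4 residual degrees of freedom rather than 2. Genes were kept by filterByExpr (minimum count 10, total 15), scaled by TMM and tested with edgeR 4.0.16 (quasi-likelihood test, R 4.3.3), with p-values adjusted by Benjamini-Hochberg over all 13851 genes tested of 30813; a call is an adjusted p under 0.05. The contrasts were 120 h against 72 h, 72 h against 24 h, and the difference of these changes. Standard errors are the log2 fold change over the root of F. CPM was computed from the counts with TMM-scaled library sizes, and a median of a list is over its tested members; 9 to 29 members a list were tested, and 8 of the markers of other cell types. Fold bounds against 0 counts use a floor of 3 counts over both libraries of a time; such intervals and floors cover counting error only, since reads carry no molecular identifiers. Depth was 9714190 to 16447548 counts a library. The scripts were tested on simulated data with known changes.

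The members and gene lists were chosen with earlier results of these data known. Named genes were 14 fixed genes, the 12 highest and 12 lowest called fold changes with at least 10 CPM in the higher group and no overlap between times, up to 4 called members a list with the smallest p, the 8 with the most extreme difference of changes, and the 5 with the largest share of counts at 120 h; 24 others, named to complete a group or show a promoter, were chosen after their values were seen. Promoters came from RefSeq (GRCh38.p14). Alternatives were RLE size factors, library totals, no filter, a minimum of 1 CPM, DESeq2 1.42.0, a replicate term, a test against a 1.5-fold change, the 4 libraries alone, and each library left out. Some list members are not reported here by name.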

Additional observations from a re-analysis of the deposited data

Results flagged for a closer look

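The changes from 72 h to 120 h and from 24 h to 72 h differed by a test of the difference itself for 2833 genes. The genes with the most extreme positive differences (log2) were MLANA at 2.60, FAM110A, a spindle positioning protein, at 2.49, SLC7A11 at 2.43 and PIF1, a DNA helicase, at 2.37. MLANA had fallen by 3.76 on the log2 scale before 72 h and fell by 1.16 after it, while FAM110A had changed by -2.12 and then 0.37. The most extreme negative differences were COL10A1, a collagen X chain that overlaps NT5DC1, at -5.56, the chemokine genes CCL3L3 at -5.05 and CCL3 at -4.98, and ITGA11, a collagen-binding integrin, at -4.70. CCL3 stood at 8.79 and 6.65 CPM at 24 h, then at 149 and 132 CPM at 72 h and 94.0 and 64.5 CPM at 120 h, and CCL3L3 is a near copy of it, so that their shares of the reads are uncertain. ITGA11 stood at 0.697 and 0.416 CPM at 24 h, then at 40.8 and 29.9 CPM at 72 h and 85.6 and 79.3 CPM at 120 h, so that it still rose after 72 h, by 1.23 against 5.93 before.

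Of the genes described above, the difference was -1.11 for DUSP6, -0.87 for CCND1, -2.12 for HMGCS1 and -1.25 for MKI67. It was 1.25 for HSPA8, 1.08 for NFKBIA, 1.00 for BIRC3 and -3.22 for IL1B. With 2 libraries in each group, no single library could be tested as lying apart from its group.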

How the results depend on the processing

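No named gene that was called changed direction under any alternative run, but the balance of calls and some list medians did. The count of 4531 genes (2297 higher, 2234 lower) became 1500 higher and 3396 lower under library totals alone, 2975 with 1442 higher and 1533 lower under DESeq2, and 550 with 241 higher and 309 lower against a fold change of 1.5. With each library left out in turn it ranged from 2851 to 4510, with 1366 to 2286 higher and 1485 to 2224 lower, lowest without the second 72 h library; the cause was not tested. The difference of the changes (2833 genes, 1205 higher, 1628 lower) became 1660, 657 and 1003 under DESeq2 and 1478 to 2851, 533 to 1158 and 945 to 1693 with a library left out. Of the 4531 calls, 2974 were also made by DESeq2 and 2752 without the second 72 h library. Under library totals alone the medians of ERK output, immediate-early, neural crest, YAP target and lysosomal genes turned negative, as did markers of other cell types (0.081 to -0.022, -0.040 with no filter and -0.045 under DESeq2). Without the second 72 h library the interferon median turned from 0.23 to -0.0017, cell cycle inhibitors from -0.067 to 0.0015, immediate-early genes from 0.033 to -0.023 and YAP targets from 0.032 to -0.081; the last was also just below 0 with a minimum of 1 CPM. Without the first 120 h library immediate-early genes turned to -0.18 and lysosomal genes to -0.027, and without the second 120 h library AP-1 factors turned from -0.059 to 0.0086 and heat shock genes from -0.014 to 0.043. Replicates 1 and 2 stand for the letters B and C of the labels, which recur at each time, but no label says what a shared letter means, and there are only 2. Deviations from the group means correlated at 0.133 to 0.137 among the withdrawal groups and at -0.0195 to 0.00977 with the on-drug pair. A replicate block in the fit gave 5041 calls, 2551 higher and 2490 lower, and 3384 for the difference of the changes; it called MMP1 higher (0.25, adjusted p = 0.00142) and GINS3 lower (-0.50, adjusted p = 0.0392), both not called without it. Depth limits the pigment and receptor genes with few counts, for which only a bound or an interval was given.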

Other observations

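Calls were also counted by gene class. Of 11997 protein-coding genes tested, 35.8% were called at 120 h against 72 h, 2123 higher and 2168 lower. Of 572 long intergenic RNA genes, 62 were higher and 23 lower (14.9%), and of 586 antisense genes 51 were higher and 14 lower (11.1%). Antisense reads cannot be separated from those of the opposite gene without a strand setting; the difference between classes was not tested. Of 103 processed pseudogenes, 2 were higher and 3 lower.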
